A study of Mus musculus with 7 samples.

Results

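The genes of tight junctions, gap junctions and desmosomes were compared between mouse embryonic fibroblasts (MEFs) and mouse embryonic stem cells (mESCs). They were chosen by gene symbol, with earlier results of these data known, and make up 61 of the 55484 genes in the count table. They comprise 23 claudins, 16 connexins, 10 desmosomal genes, 10 scaffold, membrane and polarity genes of the tight junction, and 2 catenins. MEFs are mesenchymal cells cultured from embryos, whereas mESCs are pluripotent and derive from the preimplantation embryo. Both cell types were labelled as of C57/Bl6 background, with no treatment or altered gene named, and were measured by RNA-seq in 4 MEF and 3 mESC libraries. The stage of the embryos, the passage and the culture conditions are not given in the sources used here. The study sorted MEFs for THY1 and mESCs for the absence of THY1 and the presence of SSEA1 and EPCAM before its chromatin assay, and does not state whether the RNA came from sorted cells. The extraction text of the labels speaks of blood stem cells of young and aged mice, whereas every sample is labelled as MEF or mESC. The study calls the replicates of its transcriptional data biological and names fewer of them than the MEF libraries in the table. The labels do not say whether libraries of one cell type came from separate cultures, and each p-value measures only the spread between these libraries.

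Cells of an epithelium are held together by several junctions. Claudins, occludin and tricellulin are membrane proteins that seal the space between cells at the tight junction, and the ZO proteins (Tjp genes) and cingulin tie them to actin. Polarity proteins of the Crumbs and PAR groups place that seal at the boundary of the apical surface. Connexins form gap junction channels that pass ions and small metabolites between neighbours. Desmosomes are built from the cadherins desmoglein and desmocollin, the armadillo proteins plakoglobin and plakophilin, and desmoplakin, which links them to keratin filaments. Catenins act with the classical cadherins of the adherens junction, and alpha-catenin links these to actin. Mouse ES cells grow as compact epithelial colonies, whereas fibroblasts are mesenchymal cells that lack tight junctions and desmosomes but share gap junctions and adherens junctions.

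The libraries carried the identity on their labels. All 11 pluripotency markers tested were higher in mESCs (12 listed), with summed levels of 42.1 to 46.3 CPM (counts as parts of the library total, on a common scale) in MEF libraries and 3961 to 4136 CPM in mESC libraries. All 12 fibroblast markers were lower in mESCs, with 24018 to 39120 CPM in MEF libraries against 427 to 466 CPM. The libraries held 6528643 to 11441278 counts on genes, and a floor of 3 counts, which covers counting error only, lay between 0.262 and 0.460 CPM. Within a cell type some libraries stood apart. The Y-linked genes Ddx3y, Eif2s3y and Kdm5d summed to 82.4 CPM in the MEF library of 9176467 counts and 85.2 CPM in that of 6528643 counts, to 40.7 CPM in the mESC library of 7462710 counts, and to at most 1.99 CPM in the other four. Libraries are named here by their totals, and values are listed in the order 11441278, 7312679, 9176467 and 6528643 counts for MEFs and 8193825, 8057985 and 7462710 counts for mESCs.

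Of the 61 junction genes, 33 had enough counts to be tested, and 16 of these were higher and 4 lower in mESCs (48.5% and 12.1%; quasi-likelihood test of edgeR, Benjamini-Hochberg adjusted p below 0.05). Over all 16580 genes tested, 22.8% were higher and 25.0% lower in mESCs. The share of junction genes was above that background on the side of mESCs and below it on the side of MEFs, which describes a list chosen with earlier results known. The median fitted log2 fold change, mESC minus MEF, was 1.15 over the 33 genes and 0.04 over all genes tested. Fitted changes rest on TMM scaling of the counts, and without that scaling the median over all genes was 0.32. The mean CPM of Gjc1, Gja5, Jup and Pkp2 was higher in mESCs, while their fitted changes with TMM were below 0. Cell types without overlap in CPM were common. Of all 16580 genes tested, 5718 had every mESC library above every MEF library and 3448 had the reverse. Among the 33 junction genes tested these numbers were 18 and 3. In bulk RNA, fewer cells of a type and less RNA per cell cannot be told apart. The other 28 genes had between 0 and 60 counts in a library and were not tested, and Cldn8, Cldn16, Cldn22 and Cldn24 had 0 counts in every library.

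**Figure D1:**
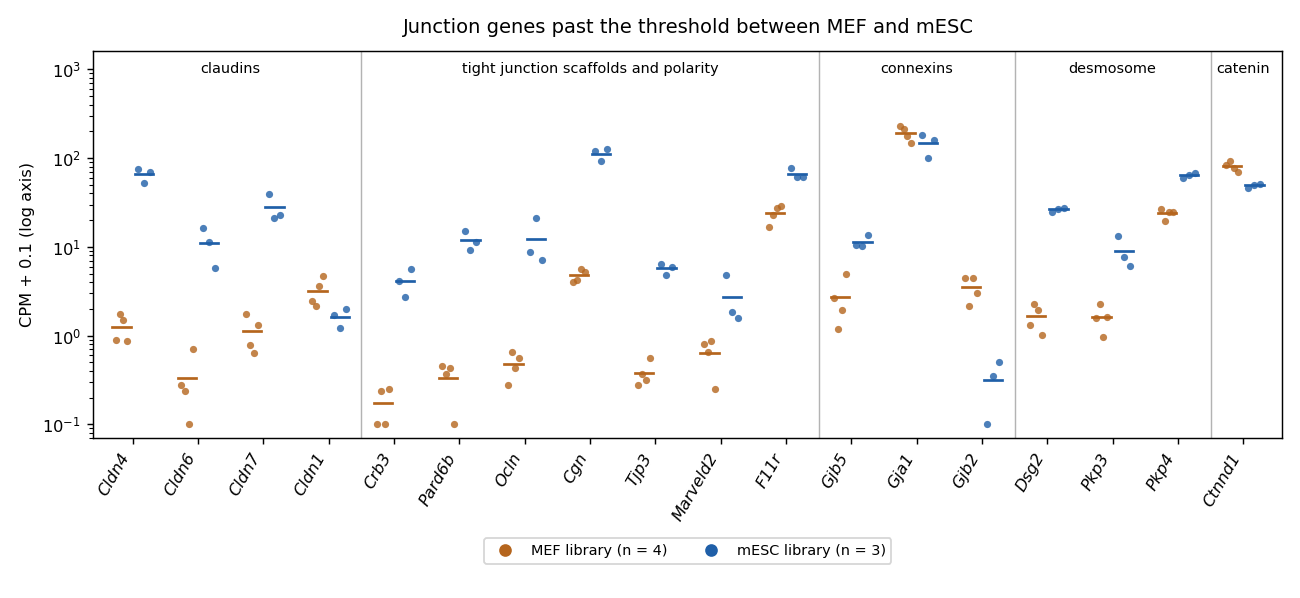
Level of 18 of the 20 junction genes past the threshold in each library, as CPM plus 0.1 on a log axis; points are libraries and bars are means of 4 MEF and 3 mESC libraries. Cldn4 rises from 1.15 to 66.0 CPM and Cgn from 4.66 to 112 CPM in the mean, and the points of Gja1 are mixed between the cell types.

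By family, shares are read beside the 22.8% higher and 25.0% lower of all genes tested. Of the 10 scaffold, membrane and polarity genes of the tight junction, 8 were higher and 0 lower in mESCs (80% and 0%). Among the 7 claudins tested, 3 were higher and 1 lower (42.9% and 14.3%). The 6 connexins tested were divided into 2 higher, 2 lower and 2 that did not pass (33.3% on each side). Desmosomal genes gave 3 higher, 0 lower and 5 that did not pass among 8 tested (37.5% and 0%), and of the 2 catenins 1 was lower (50%). Few genes were tested in each family, so a single gene moves its share widely. In the plot of fitted changes, Crb3, Pard6b, Ocln, Cgn and Tjp3 stand far to the right, Tjp1 and Pard3 near 0, and Dsp, Jup, Pkp1 and Pkp2 of the desmosome around 0.

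**Figure D2:**
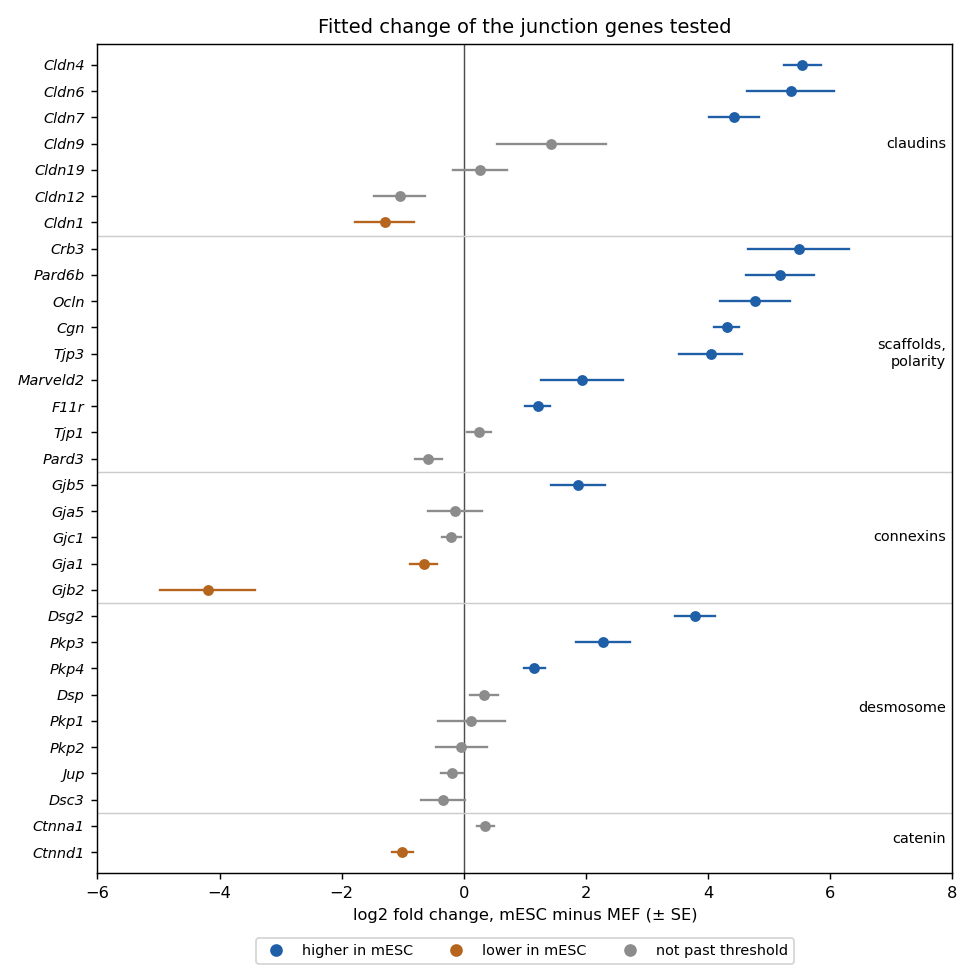
Fitted log2 fold change (mESC minus MEF, horizontal axis) of 31 of the 33 junction genes tested, by family; points are estimates of edgeR's fit and lines are 1 standard error to each side. Values run from -4.20 (Gjb2) to 5.54 (Cldn4), and grey points did not pass the threshold.

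The promoters of the genes that were higher in mESCs are shown because many of them carried the same short motif. The 6-base E-box CAGGTG, read on both strands (CACCTG on the other), is the element that Snail and ZEB repressors are known to bind in epithelial genes. RefSeq promoter windows on GRCm38.p6, from 250 bases before to 50 after an annotated start, were given for 43 of the 61 genes and 16 of the 20 past the threshold. Dsg2 and Pkp3 were among those without one. The windows of Cldn4 (chr5:134946885-134947184, minus strand), Cldn6 (chr17:23679115-23679414, plus strand), Cldn7 (the second of its windows, chr11:69965171-69965470, plus strand), Crb3 (the first, chr17:57061951-57062250, plus strand), Ocln (chr13:100552449-100552748, minus strand) and Pard6b (chr2:168080754-168081053, plus strand) are printed on the strand of the gene, 5′ to 3′, with each E-box in capitals.
Cldn4: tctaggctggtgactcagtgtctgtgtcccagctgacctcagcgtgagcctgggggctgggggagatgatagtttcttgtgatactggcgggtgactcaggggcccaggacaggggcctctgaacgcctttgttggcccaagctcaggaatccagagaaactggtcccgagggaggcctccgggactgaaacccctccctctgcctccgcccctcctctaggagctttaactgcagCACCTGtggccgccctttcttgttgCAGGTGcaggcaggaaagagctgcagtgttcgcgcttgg
Cldn6: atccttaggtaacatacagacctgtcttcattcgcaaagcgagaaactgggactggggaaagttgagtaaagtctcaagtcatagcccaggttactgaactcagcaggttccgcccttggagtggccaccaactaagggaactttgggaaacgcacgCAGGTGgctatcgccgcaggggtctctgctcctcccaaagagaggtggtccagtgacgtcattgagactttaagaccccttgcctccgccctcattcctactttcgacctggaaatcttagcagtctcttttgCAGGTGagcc
Cldn7: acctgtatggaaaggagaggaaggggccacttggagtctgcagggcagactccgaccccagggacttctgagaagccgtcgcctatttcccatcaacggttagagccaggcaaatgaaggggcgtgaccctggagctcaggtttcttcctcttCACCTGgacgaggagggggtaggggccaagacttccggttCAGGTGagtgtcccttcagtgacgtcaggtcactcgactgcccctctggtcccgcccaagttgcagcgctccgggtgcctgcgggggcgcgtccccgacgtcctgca
Crb3: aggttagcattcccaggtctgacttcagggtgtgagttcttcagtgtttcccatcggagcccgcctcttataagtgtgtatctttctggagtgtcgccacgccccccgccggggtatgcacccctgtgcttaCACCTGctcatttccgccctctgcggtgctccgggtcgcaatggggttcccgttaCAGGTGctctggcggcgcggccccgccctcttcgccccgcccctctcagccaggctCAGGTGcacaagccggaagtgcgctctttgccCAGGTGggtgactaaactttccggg
Ocln: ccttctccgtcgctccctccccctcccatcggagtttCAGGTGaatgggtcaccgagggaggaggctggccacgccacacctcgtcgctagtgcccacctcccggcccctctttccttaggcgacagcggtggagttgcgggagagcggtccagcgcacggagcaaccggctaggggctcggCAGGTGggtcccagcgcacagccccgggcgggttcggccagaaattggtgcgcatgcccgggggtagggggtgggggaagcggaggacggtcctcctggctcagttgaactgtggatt
Pard6b: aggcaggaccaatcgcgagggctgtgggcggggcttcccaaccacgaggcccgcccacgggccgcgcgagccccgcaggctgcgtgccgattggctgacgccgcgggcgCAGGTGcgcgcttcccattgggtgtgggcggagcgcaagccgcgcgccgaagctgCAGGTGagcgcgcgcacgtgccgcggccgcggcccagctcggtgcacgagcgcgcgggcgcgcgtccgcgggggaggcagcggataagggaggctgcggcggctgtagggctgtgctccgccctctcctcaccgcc

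Counted from the annotated start, these E-boxes began at -14 and 12 in Cldn4, at -93 and 41 in Cldn6, at -97 and -57 in Cldn7, at -118, -63, -7 and 26 in Crb3, at -213 and -68 in Ocln and at -141 and -86 in Pard6b. Crb3 thus held 4 matches in its window, and the other windows printed held 2 each. The windows printed were ones with several matches. Apart from the second window of Crb3, which overlaps the first, the unprinted windows of genes higher in mESCs held 1 match or none. How many of all promoter windows hold several matches was not counted. Of the 12 genes higher in mESCs that had a window, 10 held the E-box in at least one (83.3%), or 14 of their 18 windows (77.8%). Windows of one gene can overlap, as those of Crb3, of Marveld2 and of Ocln do, and then share matches. The match of Ocln at -213 in the window printed lies at 8 from its other annotated start. The E-box occurred in 20.2% of all 32851 promoter windows and in 22.6% of the 27025 genes that have one. Among all genes higher in mESCs it was found in 25.1% of 2666 genes, and among all genes lower in mESCs in 17.5% of 3125.

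The junction genes that were not higher in mESCs stood near that level. The E-box was found in 1 of 4 genes lower in mESCs (Gjb2, at -9), in 2 of 7 that did not pass the threshold and in 5 of 20 that were not tested. Cgn and Gjb5 were the genes higher in mESCs whose windows held none. The Grainyhead-like motif AACCNGTT, the core bound by Grhl activators of epithelial genes, was found in 1 of the 18 windows, that of Cgn, and in 2.09% of all windows. The letters of the E-box do not lie within those of the Grainyhead-like motif. A match of letters in a window is a description of the sequence and was not tied to binding in these data.

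**Figure D3:**
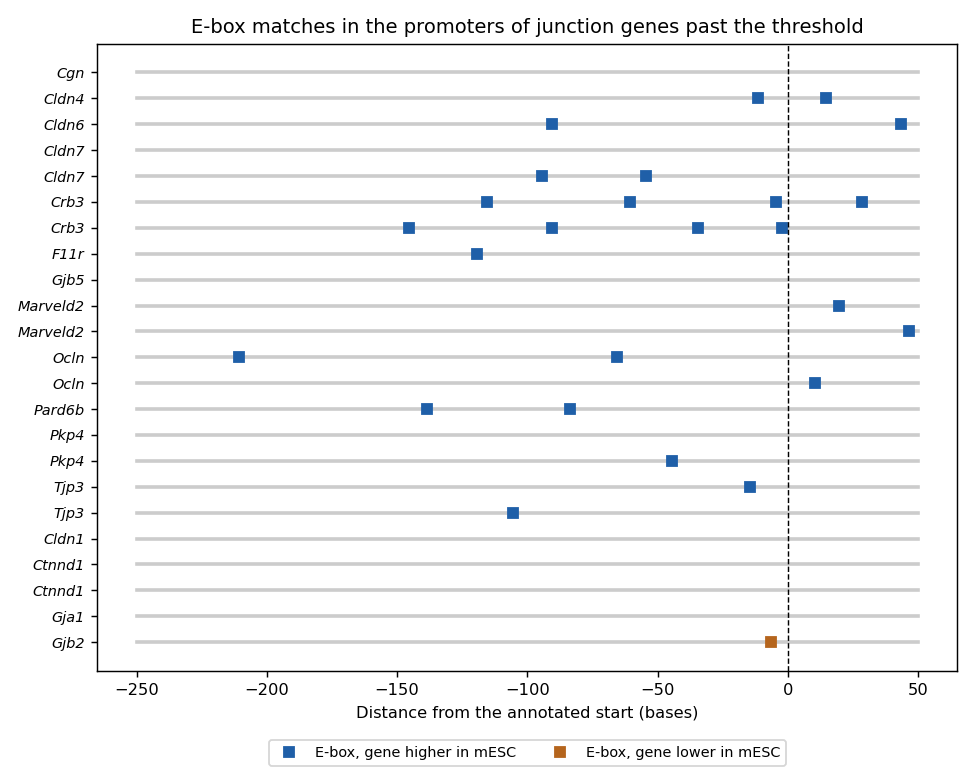
Position of each E-box (squares) along the promoter windows (grey lines) of the junction genes past the threshold, in bases from the annotated start on the horizontal axis; one line is one window, and genes with several starts have several lines. Squares appear on 14 of the 18 windows of genes higher in mESCs (blue) and on 1 of the 5 windows of genes lower in mESCs (brown).

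Among the claudins, Cldn4, Cldn6 and Cldn7 rose in mESCs and Cldn1 fell. Cldn4 (chromosome 5 of GRCm38, 134945119 to 134946934) is a barrier-forming claudin of epithelia. Its level was 0.787, 1.64, 1.42 and 0.766 CPM in the MEF libraries and 76.2, 52.1 and 69.7 CPM in the mESC libraries. Every mESC library lay far above every MEF library, with means of 1.15 ± 0.444 CPM in MEFs (SD, n = 4) and 66.0 ± 12.4 CPM in mESCs (SD, n = 3). The fitted log2 fold change of 5.54 (standard error, SE, 0.304; edgeR, Benjamini-Hochberg adjusted p = 2.32e-07, as for each adjusted p that follows) was the largest of the 33 in this fit. The order of the top genes varied with the setting. In DESeq2 Crb3 had a larger change (5.81 against 5.58), and without the MEF library of 6528643 counts Cldn6 and Crb3 did (6.22 and 6.03 against 5.40). Cldn7 (chromosome 11, 69964779 to 69967885), a claudin of epithelial cells that binds EPCAM, had 1.66, 0.684, 0.545 and 1.23 CPM in MEFs and 39.5, 21.1 and 22.6 CPM in mESCs. The groups did not overlap, and the fitted log2 fold change was 4.43 (SE 0.415, adjusted p = 1.01e-05).

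Cldn6 (chromosome 17, 23679249 to 23682446), a claudin of embryonic epithelia and pluripotent cells, had 2, 1, 0 and 4 counts in MEFs and 133, 90 and 42 counts in mESCs. Its levels in mESCs were 16.2, 11.2 and 5.63 CPM, lowest in the library of 7462710 counts. Pooled over libraries the mESC level was 55.0 times the MEF level, with a 95% counting interval of 26.3 to 138, and the fitted log2 fold change was 5.35 (SE 0.717, adjusted p = 0.000129). Extraembryonic endoderm markers were also lowest in the mESC library of 7462710 counts, where Sox17 had 9 counts against 51 and 41, Foxa2 had 4 against 21 and 18, and Sox7 had 6 against 35 and 20. Their summed level over 7 markers was 46.4, 29.2 and 16.1 CPM in mESC libraries and 24.2 to 32.8 CPM in MEF libraries, where Sox17 and Foxa2 had 0 counts. The part of such cells in the Cldn6 level was not tested. Without the mESC library of 7462710 counts its log2 fold change was 5.67 (adjusted p = 0.000178).

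Cldn1 (chromosome 16, 26356642 to 26371841), the claudin of the skin barrier, was the one claudin lower in mESCs. It had 27, 15, 32 and 30 counts in MEFs and 13, 9 and 14 in mESCs, or 3.12 ± 1.16 CPM (SD, n = 4) and 1.53 ± 0.383 CPM (SD, n = 3). The MEF libraries lay above the mESC libraries by a small margin, from 2.05 against 1.88 CPM. The fitted log2 fold change was -1.30 (SE 0.487, adjusted p = 0.0485), and the call was lost without TMM (adjusted p = 0.115), with DESeq2's size factors (adjusted p = 0.0514) and with all genes of at least 1 count tested (adjusted p = 0.135). It was also lost without the MEF library of 9176467 or of 6528643 counts and without any one of the mESC libraries (adjusted p = 0.0803 to 0.146).

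Of the claudins that did not pass, Cldn12 came closest. It had 25.2, 15.7, 26.6 and 15.2 CPM in MEFs and 16.8, 14.9 and 4.69 CPM in mESCs, with groups that overlapped and a fitted log2 fold change of -1.05 (SE 0.417, adjusted p = 0.0601). Its lowest value was again in the mESC library of 7462710 counts, and without that library its log2 fold change was -0.67 (adjusted p = 0.127). It passed without the MEF library of 6528643 counts (adjusted p = 0.0491), without the mESC library of 8193825 counts (adjusted p = 0.0499), in DESeq2 (adjusted p = 0.0318) and with all genes of at least 1 count tested (adjusted p = 0.00217). Cldn9, which lies 137 bases from Cldn6, had 10, 0, 2 and 16 counts in MEFs and 21, 15 and 30 in mESCs (log2 fold change 1.43, SE 0.897, adjusted p = 0.218). Without the MEF library of 6528643 counts, where it was highest among MEFs, it passed with a log2 fold change of 2.47 (adjusted p = 0.0395). Cldn19 had 4.88 ± 2.18 CPM in MEFs (SD, n = 4) and 7.04 ± 2.06 CPM in mESCs (SD, n = 3), with an adjusted p of 0.668.

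The 16 claudins without a test were near the floor in most libraries. Cldn3 and Cldn5 had counts almost only in mESCs. Cldn3, a neighbour of Cldn4 at 39279 bases, had 0, 1, 1 and 0 counts in MEFs and 14, 7 and 8 in mESCs. Cldn5, a claudin known from endothelium, had 0, 0, 0 and 1 counts in MEFs and 9, 12 and 10 in mESCs. Of 7 endothelial markers, 5 were tested, and 2 were higher (Pecam1 and Vwf) and 0 lower in mESCs. That is 40% higher, beside 22.8% of all genes tested, and the median log2 fold change of the 5 was -0.39. Cdh5 had 3, 1 and 0 counts in mESCs. The 7 markers summed to 24.7 to 35.3 CPM in MEF libraries and 61.1 to 91.6 CPM in mESC libraries. The part of endothelial RNA in the Cldn5 level was not tested. Cldn11, known from myelin and Sertoli cells, had counts mostly in MEFs and unevenly, with 7, 39, 60 and 0 counts there and 1, 0 and 1 in mESCs. The remaining claudins without a test, Cldn2, Cldn8, Cldn10, Cldn13 to Cldn18, Cldn20 and Cldn22 to Cldn24, had at most 12 counts in any library.

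Of the scaffold, membrane and polarity genes of the tight junction, Crb3, Pard6b, Ocln, Cgn, Tjp3, Marveld2 and F11r rose in mESCs, and Tjp1 and Pard3 did not pass. Crb3 (chromosome 17, 57059105 to 57065918), the Crumbs protein of mammalian epithelia, had 0, 1, 0 and 1 counts in MEFs and 33, 21 and 41 in mESCs. Every MEF library was under the floor of 3 counts, so the fitted log2 fold change of 5.49 (SE 0.83, adjusted p = 0.000306) is no bound. The pooled ratio of mESC to MEF levels was 69.0, with a 95% counting interval of 18.6 to 578. Pard6b (chromosome 2, 168081004 to 168101203), a partner of atypical protein kinase C in the PAR complex, had 4, 2, 3 and 0 counts in MEFs and 124, 73 and 84 in mESCs. Its pooled ratio was 45.4 (counting interval 23.6 to 100.3) and its fitted log2 fold change 5.17 (SE 0.557, adjusted p = 2.71e-05). Both genes were thus almost absent from the MEF counts and present in each mESC library.

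Occludin (Ocln; chromosome 13, 100496507 to 100552718) had 0.175, 0.547, 0.327 and 0.460 CPM in MEFs and 8.67, 21.1 and 6.97 CPM in mESCs. The mESC library of 8057985 counts was well above the other mESC libraries, and all stood above the MEF libraries (log2 fold change 4.77, SE 0.578, adjusted p = 6.37e-05). Marveld2, the tricellulin gene that lies next to Ocln with 43238 bases between them, had 8, 4, 7 and 1 counts in MEFs and 39, 14 and 11 in mESCs. Its fitted log2 fold change was 1.94 (SE 0.667, adjusted p = 0.0337), and without the mESC library of 8193825 counts it was 1.23 with an adjusted p of 0.243. The call of Marveld2 was also lost without the MEF library of 7312679 or of 6528643 counts and without the mESC library of 8057985 counts (adjusted p = 0.0505 to 0.0618).

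Cingulin (Cgn; chromosome 3, 94760069 to 94786492), the adaptor between ZO proteins and actomyosin, had 3.93, 4.10, 5.56 and 5.05 CPM in MEFs and 120.3, 91.5 and 125 CPM in mESCs. It had the smallest adjusted p of the junction genes, 8.01e-08, at a log2 fold change of 4.31 (SE 0.201). Of its 50-base sequences, 17.2% also occur in the annotated gene BC021767, so part of its counts is uncertain.

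Of the ZO genes, Tjp3 rose in mESCs and Tjp1 did not pass. Tjp3 (chromosome 10, 81273207 to 81291581) had 2, 2, 2 and 3 counts in MEFs, all at or under the floor, and 52, 38 and 44 in mESCs, a pooled ratio of 21.6 (95% counting interval 11.1 to 48.3; adjusted p = 9.46e-05). Tjp1 had 29.7 ± 6.30 CPM in MEFs (SD, n = 4) and 42.7 ± 4.68 CPM in mESCs (SD, n = 3), with libraries that overlapped and a log2 fold change of 0.25 (SE 0.195, adjusted p = 0.32). Among the alternatives run, Tjp1 passed only without TMM (adjusted p = 0.0495). The difference between Tjp3 and Tjp1 was not tested.

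F11r, which encodes the adhesion molecule JAM-A, had 16.6, 22.7, 27.0 and 29.1 CPM in MEFs and 78.0, 60.6 and 61.9 CPM in mESCs (log2 fold change 1.21, SE 0.209, adjusted p = 0.000743). It was higher in every mESC library, while its MEF level was well above the floor. Pard3, the scaffold of the PAR complex, had 36.1 ± 10.1 CPM in MEFs (SD, n = 4) and 29.3 ± 1.35 CPM in mESCs (SD, n = 3), with overlapping libraries and a log2 fold change of -0.58 (adjusted p = 0.0554). With a library left out, Pard3 passed the threshold in 2 fits. These lacked the MEF library of 11441278 counts (adjusted p = 0.0359) or that of 7312679 counts (adjusted p = 0.0397).

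The genes that rose had counts in at least one MEF library. For Cldn4, Crb3, Pard6b and Cldn6 the mean MEF level was 1.75%, 1.79%, 2.01% and 2.10% of the mean mESC level, and for Ocln, Cldn7 and Cgn it was 3.08%, 3.71% and 4.15%. The 11 pluripotency markers tested left a residue from 0.33% for Dppa4 and 1.37% for Nanog to 3.66% for Epcam. Nanog had 46, 30, 41 and 27 counts in the MEF libraries. Among the other junction genes that rose, the residue was 4.98% for Tjp3, 5.88% for Dsg2 and 16.9% for Pkp3. It was 20.3% for Marveld2, 22.8% for Gjb5, 35.7% for F11r and 37.0% for Pkp4. The part of mESC-derived RNA in the MEF counts of junction genes was not tested.

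Connexins were called in both directions, with 33.3% of the 6 tested on each side, beside 22.8% higher and 25.0% lower of all genes tested. Gjb5 (chromosome 4, 127354809 to 127358181), a beta connexin, had 2.53, 1.09, 1.85 and 4.90 CPM in MEFs and 10.4, 10.1 and 13.7 CPM in mESCs (log2 fold change 1.87, SE 0.447, adjusted p = 0.00543). The groups did not overlap. Gja4 was not tested and had 1 count in each MEF library and 3, 12 and 3 in mESCs.

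Gjb2 (chromosome 14, 57098600 to 57104702), a beta connexin of the inner ear and of many epithelia, was lower in mESCs. It had 50, 15, 40 and 19 counts in MEFs and 0, 2 and 3 in mESCs, where every library was at or under the floor, so its fitted log2 fold change of -4.20 is no bound. The pooled MEF level was 17.1 times the mESC level (95% counting interval 7.12 to 53.5), and the adjusted p of the fit was 0.00115. Its neighbours Gja3 and Gjb6 had too few counts for a test, at most 16 and 2 in any library.

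Gja1 (chromosome 10, 56377330 to 56402513), the most widely expressed connexin, had 228, 210.2, 175 and 149 CPM in MEFs and 181, 101 and 162 CPM in mESCs. The libraries of both cell types were mixed, with means of 191 ± 35.3 CPM (SD, n = 4) and 148 ± 41.9 CPM (SD, n = 3). Its fitted log2 fold change of -0.66 (SE 0.225, adjusted p = 0.0326) passed the threshold, and the call was lost without TMM (adjusted p = 0.193). It was also lost without the MEF library of 11441278 or of 7312679 counts and without the mESC library of 8057985 or of 7462710 counts (adjusted p = 0.0563 to 0.116). Gjc1, known from early embryonic heart, had 96.2 ± 2.30 CPM in MEFs (SD, n = 4) and 102 ± 14.5 CPM in mESCs (SD, n = 3), a log2 fold change of -0.20 (SE 0.154, adjusted p = 0.315). Gja5, known from atrium and arteries, had 2.92 ± 0.362 and 3.22 ± 1.44 CPM (log2 fold change -0.14, adjusted p = 0.816). Gja1, Gjc1, Gja5 and Gjb5 were each counted in every library of both cell types.

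Among the connexins without a test, Gjb1, the connexin of liver and Schwann cells, stood out in mESCs with 15, 28 and 6 counts against 1, 0, 2 and 0 in MEFs. The pooled ratio was 23.7, with a 95% counting interval of 7.66 to 119. Gja6, Gja10 and Gjc3 had at most 2 counts in any library.

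Desmosomal genes fell into a group that rose in mESCs and a group that did not pass the threshold. Dsg2, the desmoglein of simple epithelia and heart, had 1.22, 2.19, 1.85 and 0.919 CPM in MEFs and 24.7, 26.9 and 27.3 CPM in mESCs. The mESC libraries lay close together and far above the MEF libraries, and the log2 fold change was 3.79 (SE 0.331, adjusted p = 6.06e-06). Of the 50-base sequences of Dsg2, 3.53% also occur in the antisense gene Gm16090. Pkp3 (chromosome 7, 141078218 to 141090510), a plakophilin of epithelial desmosomes, had 1.49, 2.19, 0.872 and 1.53 CPM in MEFs and 13.3, 7.57 and 6.03 CPM in mESCs (log2 fold change 2.28, SE 0.449, adjusted p = 0.0017). Pkp4 (chromosome 2, 59160850 to 59355208), which is also found at adherens junctions, had 26.4, 19.4, 24.5 and 24.8 CPM in MEFs and 59.6, 65.2 and 68.3 CPM in mESCs (log2 fold change 1.15, SE 0.168, adjusted p = 0.000238). Dsg2, Pkp3 and Pkp4 each stood higher in all mESC libraries than in the MEF libraries, and Pkp4 was well above the floor in MEFs too.

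Desmoplakin (Dsp), which anchors keratin filaments, had 12.3, 12.9, 13.6 and 14.6 CPM in MEFs and 17.5, 18.1 and 25.7 CPM in mESCs. Its mESC libraries were the higher ones in CPM, but the fitted log2 fold change of 0.33 (SE 0.225, adjusted p = 0.254) did not pass, and it passed without TMM (adjusted p = 0.0453). Plakoglobin (Jup), which desmosomes share with adherens junctions, had 37.1 ± 1.52 CPM in MEFs (SD, n = 4) and 39.2 ± 6.39 CPM in mESCs (SD, n = 3), at a fitted log2 fold change of -0.20 (adjusted p = 0.395). Dsc3, a desmocollin of stratified epithelia, had 10.8 ± 4.41 and 10.4 ± 1.46 CPM (log2 fold change -0.34, adjusted p = 0.478). Pkp1, a plakophilin of stratified epithelia, had 2.54 ± 0.863 and 3.37 ± 2.43 CPM (log2 fold change 0.13, adjusted p = 0.873).

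The keratins on the list of keratinocyte markers were counted in all 7 libraries, and none passed the threshold. Krt5, the basal keratin, had 354, 254, 373 and 245 counts in MEFs and 338, 289 and 328 in mESCs, with a log2 fold change of -0.12 (adjusted p = 0.615). Krt14, Krt15 and Krt10 had fitted log2 fold changes, which rest on TMM, of -0.00, 0.01 and 0.05. In CPM, Krt15 (33.2 to 37.5 in MEFs, 39.2 to 53.5 in mESCs) and Krt10 (22.4 to 29.9 and 30.3 to 34.4) were higher in every mESC library. Trp63 had a fitted log2 fold change of -0.67 (adjusted p = 0.0755). Of the 7 markers listed, 6 were tested and only Sfn, an inhibitor of the cell cycle that other epithelia also express, passed, with a log2 fold change of 2.13 (adjusted p = 4.51e-05). The summed level of the 7 markers was 159 to 179 CPM in MEF libraries and 236 to 317 CPM in mESC libraries, and Lor, a marker of the outermost layers, had 0 counts in each mESC library. The part of keratinocyte RNA in the levels of Dsc3, Dsp, Jup and Pkp1 was not tested.

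**Figure D4:**
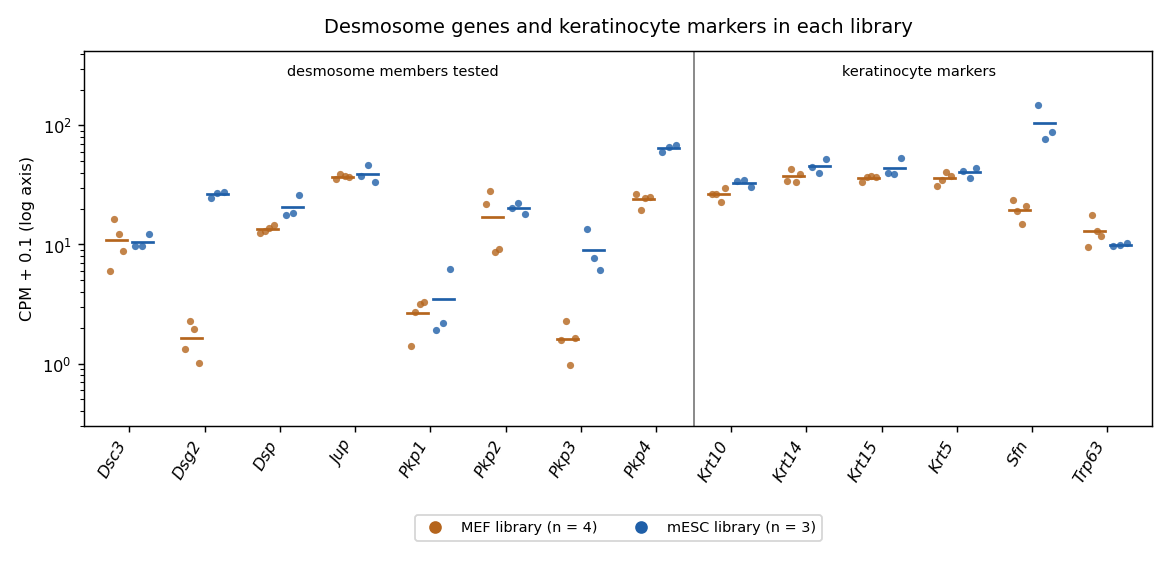
Level of the 8 desmosomal genes tested (left) and of 6 keratinocyte markers (right) in each library, as CPM plus 0.1 on a log axis; points are libraries and bars are means. Dsg2, Dsp, Pkp3, Pkp4 and the markers Krt10, Krt15 and Sfn have mESC points above all MEF points, while Jup, Dsc3, Krt5 and Krt14 have overlapping points of both cell types.

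Pkp2, a plakophilin of heart and simple epithelia, split the MEF libraries. Its level was 21.9, 28.0, 8.61 and 9.04 CPM in MEFs, lower in the libraries of 9176467 and 6528643 counts, against 20.1, 22.2 and 18.1 CPM in mESCs. The same pairs of MEF libraries differed in the sum of Y-linked genes given above. Its log2 fold change was -0.04 (SE 0.411, adjusted p = 0.949). Dsc2 had 23 counts in the MEF library of 11441278 counts, 0 in the other MEF libraries and 4, 0 and 8 in mESCs, and Dsc1 had at most 2 counts. Neither was tested.

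Both catenins were counted in each library. Ctnnd1, which binds cadherins near the membrane and keeps them at the surface, had 84.0, 93.3, 76.8 and 69.8 CPM in MEFs and 46.0, 50.1 and 51.3 CPM in mESCs. It was lower in every mESC library, with a log2 fold change of -1.01 (SE 0.169, adjusted p = 0.00061). On GRCm38 it lies on chromosome 2 at 84600071 to 84650765, and the annotated gene Gm28635 shares 61.2% of its exon bases on the same strand, so its count is uncertain. Ctnna1, the alpha-catenin that links cadherins to actin, had 232 ± 35.9 CPM in MEFs (SD, n = 4) and 358 ± 18.4 CPM in mESCs (SD, n = 3). Its mESC libraries were all higher in CPM, while its fitted log2 fold change of 0.35 (SE 0.138) had an adjusted p of 0.0589 with TMM and 0.0045 without. It also passed without the MEF library of 6528643 counts (adjusted p = 0.0371), in DESeq2 (adjusted p = 0.0400) and with DESeq2's size factors in edgeR (adjusted p = 0.0478).

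Other junction genes, from lists of genes known to act at the same junctions, were spread over both cell types. Of 55 listed and 42 tested, 11 were higher and 12 lower in mESCs (26.2% and 28.6%), near the shares over all genes tested. In the tight junction list, 5 of 21 were higher and 6 lower. Ildr1, a protein of tricellular junctions, had the largest rise, with 0.0874 to 0.684 CPM in MEFs and 19.0, 25.9 and 20.2 CPM in mESCs (log2 fold change 6.15, adjusted p = 5.83e-06). Jam2, an adhesion molecule of the JAM family, and Prkcz, an atypical protein kinase C, followed with log2 fold changes of 5.05 and 3.93. Related genes went the other way, with Ildr2 at -3.64, Jam3 at -2.41 and the scaffold Mpdz at -2.70. Jam2 and Jam3, and likewise Ildr1 and Ildr2, thus had opposite signs.

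Adherens junction genes were also called in both directions. Of 15 tested, 6 were higher and 5 lower in mESCs (40% and 33.3%, beside 22.8% and 25.0% of all genes tested). E-cadherin (Cdh1) had 2.45, 4.65, 2.51 and 2.91 CPM in MEFs and 114, 86.7 and 103 CPM in mESCs (log2 fold change 4.74, adjusted p = 2.01e-07), and N-cadherin (Cdh2) had 92.7, 95.2, 74.4 and 81.8 CPM in MEFs and 3.66, 1.99 and 2.68 CPM in mESCs (log2 fold change -5.23, adjusted p = 1.02e-07). Epcam, which the study used to sort mESCs for its chromatin assay, rose by 4.48 on the log2 scale and the catenin-like gene Ctnnal1 by 3.25. The neural catenins Ctnna2 and Ctnnd2 were lower, with log2 fold changes of -4.92 and -1.86. Panx1, a channel related to connexins in topology, was the one gene tested of 7 other channel genes and was lower in mESCs (log2 fold change -1.62, adjusted p = 0.00433). None of the 5 other desmosomal genes tested (8 listed) passed, with log2 fold changes from -1.06 for Dsg1a to 0.88 for Evpl.

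Of 13 listed regulators known to control epithelial genes, 10 were tested, and 3 were higher and 6 lower in mESCs (30% and 60%, beside 22.8% and 25.0% of all genes tested). Twist2, Snai1 and Snai2, factors of mesenchymal cells, had the most negative log2 fold changes, at -7.90, -6.07 and -5.84, and Zeb2, Twist1 and Zeb1 were also lower, at -5.37, -3.63 and -1.37. Snai2 had 78.1, 87.2, 96.6 and 106 CPM in MEFs and 1.95, 2.73 and 1.07 CPM in mESCs. Zeb1 kept 27.8, 46.2 and 28.8 CPM in mESCs. Grhl3, Ovol2 and Grhl2, factors of epithelial cells, were higher, with log2 fold changes of 3.57, 2.94 and 1.96. Grhl3 had 0.137 to 1.53 CPM in MEFs and 7.69, 11.7 and 6.97 CPM in mESCs. Esrp1 did not pass (log2 fold change 1.40, adjusted p = 0.061).

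**Figure D5:**
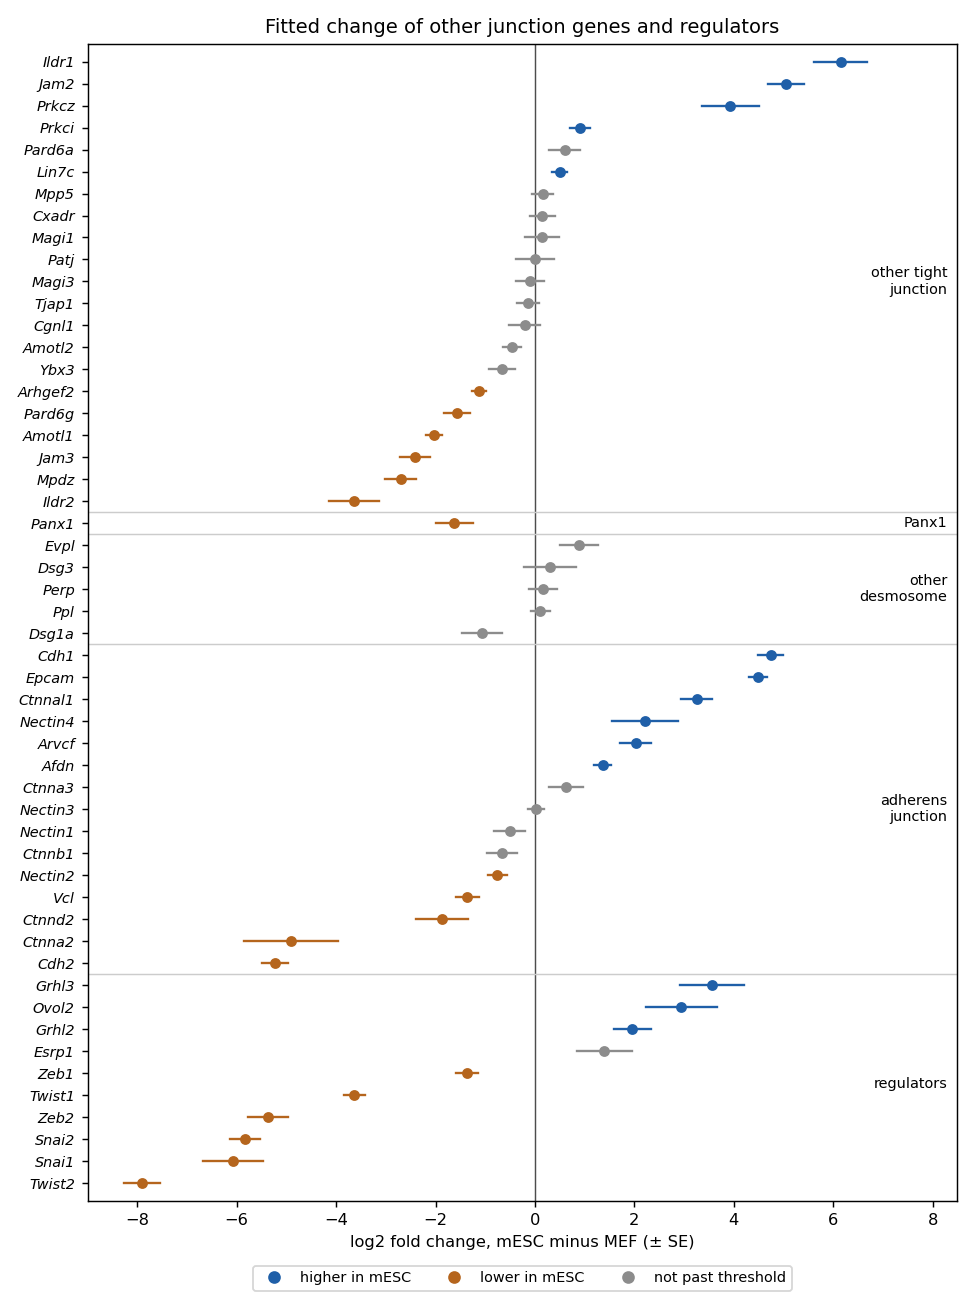
Fitted log2 fold change (mESC minus MEF, horizontal axis) of 42 other junction genes and 10 regulators of epithelial genes that were tested; points are estimates and lines are 1 standard error to each side. Junction genes stand on both sides of 0, with Ildr1 at 6.15 and Cdh2 at -5.23, and the Snail, Zeb and Twist genes all stand to the left.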

How the data were processed

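Gene expression was measured by 3′-biased RNA-seq with unique molecular identifiers in 4 MEF and 3 mESC samples. The authors demultiplexed and trimmed the reads, aligned them to mm10 (GRCm38) with STAR (version 2.4.2a in the submitters' processing notes, a different version in the study's methods), collapsed reads with the same molecular identifier, and used featureCounts to assign reads with one genomic position to exons. The deposited values are raw counts per gene. The gene annotation and strand setting of the counting are not given in the sources used here, so counts of overlapping and antisense genes are uncertain. A 3′ tag reports a gene and not its isoforms, and levels were not compared between genes. Another 26 rows have symbols in the form of dates, were kept in library totals and are not named. The column names give the cell type and end in a number that no source ties to a sample number, so columns were assigned to groups only and libraries are named by their totals (6528643 to 11441278 counts).

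The counts of both cell types were compared in edgeR 4.0.16 (with limma 3.58.1 under R 4.3.3) by filterByExpr with its minimum count of 10, TMM, and the quasi-likelihood test of 4 MEF against 3 mESC libraries without covariates, with Benjamini-Hochberg adjustment over 16580 genes at 0.05. The study's methods name no test for these data. Each SE is the fitted log2 fold change divided by the square root of its F statistic. CPM values are counts divided by the library total, on the usual common scale. Ratios of pooled counts carry exact 95% intervals for counting error only. Libraries of one cell type differed by more than sampling noise (chi-square of 15.6 to 31.1 per degree of freedom). Among MEFs it was 15.8 for the libraries of 11441278 and 7312679 counts and 20.1 for those of 9176467 and 6528643 counts. Between these pairs it was 26.2 to 31.1, and the sums of Y-linked genes split the MEF libraries in the same way. The test treats the 4 MEF libraries as separate replicates, so its p-values do not take such pairs into account. The code was tested on simulated data. Alternatives were DESeq2 1.42.0, no TMM, DESeq2's size factors, filters of 1 count in all or 10 counts in each library of a cell type, a test against a fold change of 2, and leaving out each library.

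The junction genes, the lists of other junction genes and regulators, and the marker lists of pluripotent, fibroblast, keratinocyte, trophoblast, extraembryonic endoderm, endothelial, glial, cardiac muscle and blood cells were chosen with earlier results of these data known. Values of some junction genes are not reported here, and those genes remain in the counts. The other junction genes were accounted for, with the value of each library for up to 5 genes past the threshold per family and direction. Of the other lists, genes past the threshold with the 3 largest changes in each direction were named, and of the marker lists the defining genes. Genes named outside this rule were chosen after their values were seen. Coordinates and overlaps are from GENCODE M21 on GRCm38, sequence shared between genes was measured in 50-base stretches of the transcripts, read on either strand, and promoters are RefSeq windows on GRCm38.p6.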

Additional observations from a re-analysis of the deposited data

Results flagged for a closer look

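In 40 junction genes, the 4 MEF libraries were examined for one that lies far from the others (the gap to the nearest library against the whole range, Dixon's 95% criterion). The criterion would flag about 2 genes for normally distributed values, which low counts with many 0 values are not. A gene counted in a single library meets it at any level. It flagged 2 genes, both in the MEF library of 11441278 counts. Cldn2, a claudin of leaky epithelia, had 0.350 CPM there (4 counts) and 0 counts in the other MEF libraries. Dsc2, a desmocollin, had 2.01 CPM there (23 counts) and 0 counts in the other MEF libraries. Groups of 3 mESC libraries were not examined.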

How the results depend on the processing

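Of the 429 fitted changes of the 33 junction genes under the alternatives, 378 kept their direction and side of the threshold, 24 no longer passed, 14 passed where they had not, and 13 changed sign. Without TMM, 60.96% of all calls were on the mESC side (5205 higher and 3334 lower) against 47.7% with it, and 2 junction genes were lower in mESCs. In the test against a fold change of 2, 1714 genes were higher and 2277 lower, 1 junction gene was lower, and 7 other junction genes were lower. With the filter of at least 1 count, 5 epithelial regulators were higher. Leaving out one library at a time gave 15 to 17 junction genes higher and 2 to 4 lower, 10 to 11 other junction genes higher and 12 to 15 lower, and 3 to 4 regulators higher and 6 lower. Over all genes it gave 3234 to 3619 higher and 3792 to 3916 lower.

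Changes of sign occurred only in genes short of the threshold. Without TMM they were 0.15 for Gja5, 0.082 for Gjc1, 0.083 for Jup and 0.26 for Pkp2. With one library left out, Cldn19 ran from -0.019 to 0.45, Gja5 from -0.57 to 0.028, Pkp1 from -0.63 to 0.42 and Pkp2 from -0.26 to 0.32. The calls of F11r, Pkp4 and Ctnnd1 did not pass the test against a fold change of 2 (adjusted p = 0.191, 0.217 and 0.585), nor did those of Cldn1, Gja1 and Marveld2. Mean CPM with TMM-scaled library sizes moved by more than the spread between libraries in 10 of 66 means. The causes were not tested. No paired analysis was possible because no source ties the last number in the column names to a sample number, so the replicate block was not run. Depth limits the genes near the floor of 3 counts, where the fold depends on few reads.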

Other observations

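Markers of other cell types were measured beside the junction genes. The counts that follow rest on few genes each, and over all genes tested 22.8% were higher and 25.0% lower in mESCs. Of 7 trophoblast markers, 3 of 4 tested were higher in mESCs, with summed levels of 9.0 to 14.5 CPM in MEF and 84.1 to 117 CPM in mESC libraries, most of it Tfap2c, while Cdx2 had at most 3 counts. Of 7 extraembryonic endoderm markers only Gata6 was tested, and it did not pass (log2 fold change -0.84, adjusted p = 0.0554). Endothelial markers gave 2 of 5 higher, Pecam1 and Vwf, with summed levels of 24.7 to 35.3 and 61.1 to 91.6 CPM, and Cdh5 had at most 3 counts in mESCs. Glial markers gave 3 of 4 higher, led by Olig2 with 21.4, 30.0 and 34.6 CPM in mESCs, and summed to 2.91 to 7.34 and 35.1 to 48.5 CPM, with Sox10 near the floor. Cardiac muscle markers gave 2 higher and 1 lower of 4, with sums of 18.8 to 29.3 and 17.8 to 29.5 CPM. Blood markers gave 2 higher and 2 lower of 5, with sums of 2.87 to 19.8 and 65.5 to 75.1 CPM, most of it Laptm5 in mESCs, while Ptprc had at most 1 count in mESCs. Their part in the levels of junction genes was not tested.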
